A study of Homo sapiens with 6 samples.

Results

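The genes described here are 10 that encode subunits of protein phosphatase 2A (PP2A): the catalytic genes PPP2CA and PPP2CB, the scaffold genes PPP2R1A and PPP2R1B, and the regulatory genes PPP2R2A, PPP2R3A, PPP2R5A, PPP2R5C, PPP2R5D and PPP2R5E. They were taken by symbol from a table of 58395 gene rows, and all 10 were among the 23806 genes that passed the filter on low counts. The set was selected on these same libraries, because the scaffold gene PPP2R1B was among the clearest higher genes after CRP2 knockdown. The fold changes of the 10 genes are therefore given as a description, with no p-value. RNA was sequenced from MDA-MB-231 cells, an invasive breast cancer cell line, 65 hours after transfection with a CRP2-targeting siRNA (siCRP2, 3 libraries) or with a non-targeting siRNA (siCTR, 3 libraries). CRP2 is a cytoskeletal protein that bundles actin filaments and also enters the nucleus, and the comparison asks which transcripts depend on it. The siCRP2 group received a single siRNA, so effects of CRP2 loss and other effects of that siRNA cannot be told apart. All 6 libraries came from the same cell line grown in the same medium.

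PP2A is one of the main serine/threonine phosphatases of human cells. Its core is a dimer in which a scaffold (A) subunit, a horseshoe of helical repeats, holds a catalytic (C) subunit. A single regulatory (B) subunit docks on this core and determines where the enzyme acts and on which substrates. The regulatory subunits fall into the B55, B56, PR72 and striatin families, which are unrelated in sequence to each other. PP2A opposes growth signalling through kinases such as AKT and RAF and acts at mitotic exit, and loss of its function is known from several cancers, breast cancer included.

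Library totals ran from 18346442 to 39115778 counts in siCRP2 cells and from 17336798 to 25321830 counts in siCTR cells, so that 3 counts corresponded to 0.0768 to 0.175 CPM (the count scaled to library size). CSRP2, the gene of CRP2, was at 2.17, 1.78 and 1.89 CPM in siCRP2 cells, against 13.7, 11.7 and 11.4 CPM in siCTR cells (log2 fold change -2.66, SE 0.178, adjusted p = 2.4e-08, edgeR quasi-likelihood test, lower in 3 of 3 libraries). Column names carry a code that 1 library of each group shares, given here as A, B or C, and libraries of the same code deviated together. Values of 3 libraries are given in the order A, B and C. Of 9 marker genes of the line, ESR1 (at most 0.0529 CPM) and PGR (0 counts) were absent or nearly so in a line known to lack hormone receptors, and AXL was the 1 marker called lower, joined by KRT19, EPCAM and CD44 with the code as a block. Markers of other cell types summed to 17.7 to 22.0 CPM in siCRP2 cells and 44.9 to 61.5 CPM in siCTR cells, of which CD14 and PECAM1, 2 of 7 listed, were called lower, while the leukocyte marker PTPRC was at most 0.751 CPM and CD3E at 1 count in all. Their part in the values below was not tested.

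Among the 10 subunit genes, 3 were called higher in siCRP2 cells (PPP2R1B, PPP2CB and PPP2R2A), 2 were called lower (PPP2R1A and PPP2R5A) and 5 were neither, at an adjusted p under 0.05. Over all genes tested, 12.5% were called higher and 11.5% lower. Over the 7946 genes that averaged at least 20 CPM, as all 10 subunit genes did, 28.8% were called higher and 17.1% lower. Nothing is read from the counts of the 10 against these shares, since the set was chosen on the same contrast. The median log2 fold change of the 10 was 0.05, beside -0.02 over all genes tested and 0.10 over those of at least 20 CPM. In bulk RNA, fewer cells of a kind and less RNA per cell cannot be told apart.

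**Figure D1:**
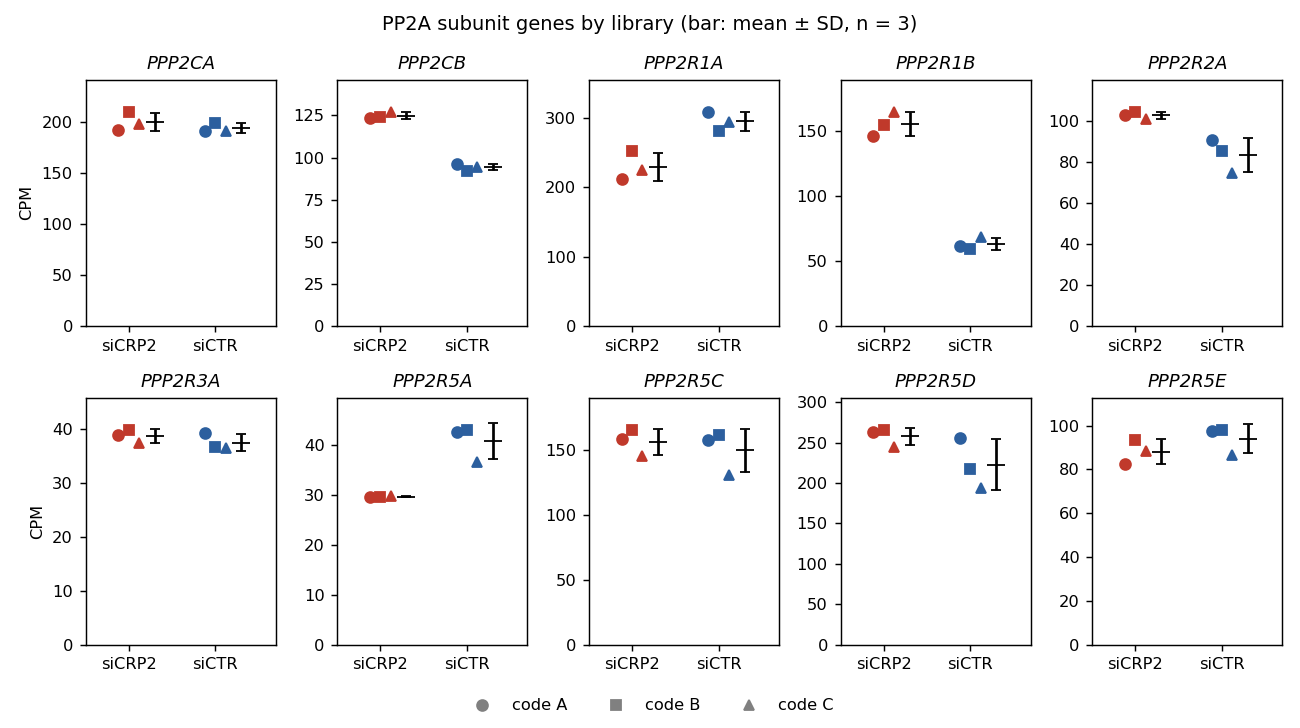
CPM (counts scaled to library size, linear axis from 0) of each of the 10 PP2A subunit genes in every library, siCRP2 left and siCTR right, with marker shape for the library code and bars for mean ± SD (n = 3). PPP2R1B shows the widest gap between the groups (147 to 165 CPM against 59.5 to 68.4 CPM), and PPP2R1A and PPP2R5A are the genes whose siCRP2 libraries all lie below the siCTR libraries.

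The scaffold genes moved in opposite directions. PPP2R1B encodes the beta isoform of the A subunit, the less abundant scaffold in most tissues. It was at 147, 155 and 165 CPM in siCRP2 cells, against 61.7, 59.5 and 68.4 CPM in siCTR cells. The lowest siCRP2 library lay far above the highest siCTR library, and the spread within each group was small (156 ± 9.19 CPM against 63.2 ± 4.63 CPM, SD, n = 3 each). The log2 fold change was 1.30 (SE 0.0891), a 2.46-fold higher level, and it was 1.25, 1.38 and 1.27 within the 3 codes. Across the alternative normalisations, filters and tests and with each library left out, it stayed between 1.23 and 1.36.

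PPP2R1A encodes the alpha isoform, the common scaffold of PP2A. It was at 212, 252 and 225 CPM in siCRP2 cells, against 309, 282 and 295 CPM in siCTR cells. The groups did not overlap, although siCRP2 library B came nearest to its siCTR partner. The log2 fold change was -0.36 (SE 0.0885), and it was -0.55, -0.16 and -0.39 within codes A, B and C. The direction was thus the same in all 3, and the size was not.

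Since levels of different genes compare only per length, CPM was divided by the length of the canonical transcript in kb. On this scale PPP2R1B made up 40.1%, 37.2% and 41.4% of the scaffold transcripts in siCRP2 cells, against 16.1%, 16.9% and 18.3% in siCTR cells. The summed level of both scaffold genes was 70.9 ± 4.60 CPM per kb in siCRP2 cells and 66.5 ± 2.86 CPM per kb in siCTR cells (SD, n = 3 each), a ratio of 1.07, and the libraries of the groups overlapped. When the length of all exons of each gene was used, a choice made after the values were seen, the PPP2R1B share was 51.2% in siCRP2 cells and 24.9% in siCTR cells. By that length the summed scaffold level was 45.5 ± 2.72 CPM per kb in siCRP2 cells and 38.0 ± 1.63 CPM per kb in siCTR cells, a ratio of 1.20 with no overlap between the libraries. The higher PPP2R1B share in siCRP2 cells thus held with both lengths, while the size of the scaffold pool turned on the length used.

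In GRCh38, PPP2R1B (ENSG00000137713) spans 111726908 to 111766389 of chromosome 11 (minus strand) and PPP2R1A (ENSG00000105568) spans 52170936 to 52229518 of chromosome 19 (plus strand). Their promoters are shown because these paralogs moved apart. The bases are the 250 upstream of the RefSeq start site (GRCh38.p14, chr11:111766390-111766639, minus strand, and chr19:52189802-52190051, plus strand), 5′ to 3′, with CCAAT boxes (CCAAT) and GC boxes (GGGCGG), on either strand, in capitals.
PPP2R1B: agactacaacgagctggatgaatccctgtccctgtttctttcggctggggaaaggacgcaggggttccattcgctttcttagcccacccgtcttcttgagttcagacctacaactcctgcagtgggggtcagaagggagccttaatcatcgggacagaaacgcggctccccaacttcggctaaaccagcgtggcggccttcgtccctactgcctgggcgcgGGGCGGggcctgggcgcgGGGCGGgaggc
PPP2R1A: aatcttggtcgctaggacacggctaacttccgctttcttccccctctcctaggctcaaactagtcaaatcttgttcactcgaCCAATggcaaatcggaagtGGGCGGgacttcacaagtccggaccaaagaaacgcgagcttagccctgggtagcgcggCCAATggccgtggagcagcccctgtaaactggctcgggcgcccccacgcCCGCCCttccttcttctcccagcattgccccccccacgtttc
The PPP2R1B window held a pair of GC boxes that begin 29 and 11 bases before the start site, and no CCAAT box. The PPP2R1A window held CCAAT boxes at 168 and 91 bases and GC boxes at 149 and 42 bases before the start. Of 35116 RefSeq windows of the same length, 32% held a CCAAT box and 42.6% a GC box, so neither motif is rare. The CArG box, the motif bound by serum response factor, for which CRP2 is known as a cofactor, was found in 0 of the 8 subunit windows searched and in 1.16% of all windows. The E2F motif (TTTCCCGC or TTTGGCGC, 1.93% of windows) was found in PPP2R5A alone, where it overlaps a GC box, and the cyclic AMP response motif (TGACGTCA, 1.65%) in PPP2CA alone. PPP2CB and PPP2R2A were left out of this search, and the PPP2R5C window lies 661 bases from the start of its canonical transcript. A match is a description of letters and no evidence of binding, and a missing match says nothing about a factor.

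No run of 75 bases, the read length, was shared by the transcripts of PPP2R1A and PPP2R1B. PPP2R1B shares 150 exon bases (2.24% of its exons) with SIK2, a salt-inducible kinase gene on the other strand, which was also higher, at 85.2 ± 4.55 CPM in siCRP2 cells and 56.9 ± 3.82 CPM in siCTR cells (SD, n = 3 each; log2 fold change 0.58, adjusted p = 0.00013, edgeR quasi-likelihood test, higher in 3 of 3 codes). PPP2R1A shares 695 exon bases (6.72% of its exons) with ENSG00000268015, a long non-coding RNA gene on the other strand, and 1.59% of its runs of 75 bases. The library kit was described as stranded in the study's methods and as a standard mRNA kit in the labels, and whether strand was used in counting is not stated. Whether reads of these stretches were kept apart is therefore not known.

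**Figure D2:**
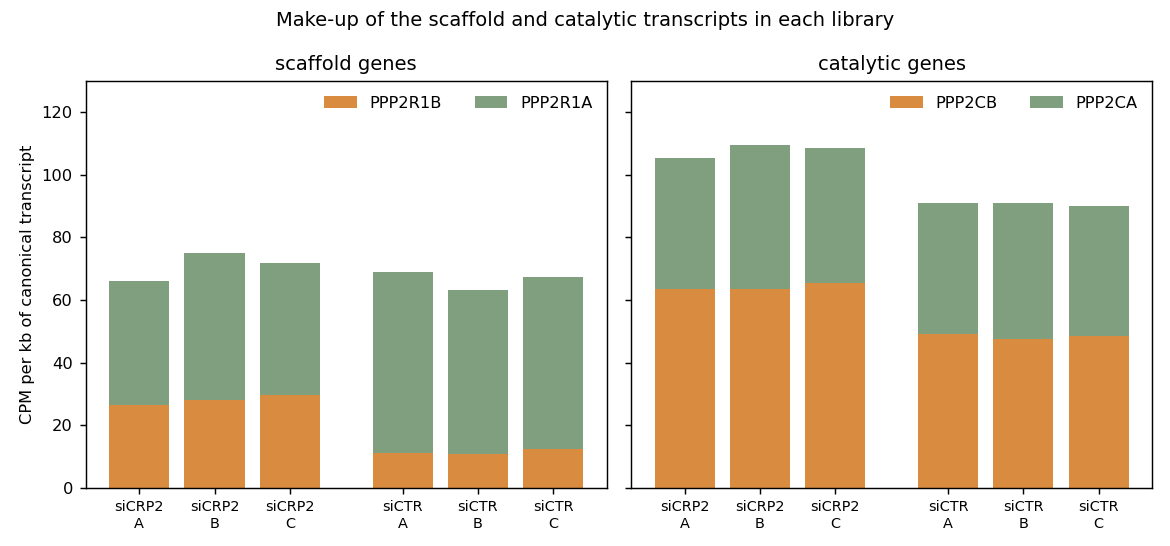
CPM per kb of canonical transcript (linear axis from 0) for the scaffold genes and the catalytic genes, stacked, in each of the 3 siCRP2 and 3 siCTR libraries. The PPP2R1B layer takes 37.2% to 41.4% of the scaffold bar in siCRP2 cells and 16.1% to 18.3% in siCTR cells, and the scaffold bars overlap in height at this length (by the length of all exons they do not). The catalytic bars are higher in siCRP2 cells, with most of the difference in PPP2CB.

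The catalytic subunits are encoded by 2 genes whose proteins are nearly identical. PPP2CB (ENSG00000104695, chromosome 8, minus strand, 30774457 to 30814314), the beta isoform, was at 124, 124 and 127 CPM in siCRP2 cells, against 95.9, 92.2 and 94.6 CPM in siCTR cells. Its libraries were tight within each group and did not overlap between them. The log2 fold change was 0.41 (SE 0.0796), a 1.32-fold higher level, with 0.37, 0.43 and 0.43 within the codes. PPP2CA (ENSG00000113575, chromosome 5, minus strand, 134194035 to 134226073), the alpha isoform, was at 192, 210 and 198 CPM in siCRP2 cells, against 191, 199 and 191 CPM in siCTR cells. These ranges overlapped, and the log2 fold change of 0.05 (SE 0.0805) was below its standard error.

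Per kb of canonical transcript, PPP2CB made up 59.5% ± 1.17 of the catalytic transcripts in siCRP2 cells and 53.4% ± 1.08 in siCTR cells (SD, n = 3 each). The summed catalytic level was 108 ± 2.12 CPM per kb in siCRP2 cells and 90.7 ± 0.443 CPM per kb in siCTR cells, a ratio of 1.19, with no overlap between the libraries. By the length of all exons PPP2CB held 47.4% in siCRP2 cells and 41.2% in siCTR cells, so which catalytic gene is the more abundant turned on the length used, while the difference between the groups did not. PPP2CA shares 1695 exon bases (26.1% of its exons) with an annotated same-strand gene, ENSG00000273345, that itself held 5 counts in siCRP2 cells and 6 counts in siCTR cells. It shares 31.3% of its runs of 75 bases with that gene, and reads in that stretch cannot be assigned by sequence alone. The study's methods name the gene counts of the STAR aligner. If such reads were left out, the PPP2CA level, the PPP2CB share and the catalytic sum would be affected, which was not tested.

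Among the B55 regulatory genes, PPP2R2A (ENSG00000221914, chromosome 8, plus strand, 26291508 to 26372680) encodes B55 alpha, which directs PP2A to substrates of cyclin-dependent kinases at mitotic exit. It was at 103, 104 and 101 CPM in siCRP2 cells, against 90.8, 85.1 and 74.4 CPM in siCTR cells. The siCRP2 libraries were close together and above all siCTR libraries, which were spread by more. The log2 fold change was 0.30 (SE 0.0901), and 0.18, 0.29 and 0.44 within codes A, B and C. This call was the least stable of the 5: it was lost when siCRP2 library A, B or C, or siCTR library B or C, was left out, with log2 fold changes of 0.22 to 0.31.

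PPP2R3A (ENSG00000073711, chromosome 3, plus strand, 135965728 to 136147894), the member of the PR72 family, a calcium-binding group, was among the genes called neither way. It was at 38.9, 39.7 and 37.3 CPM in siCRP2 cells, against 39.2, 36.6 and 36.4 CPM in siCTR cells, and the ranges overlapped. Its log2 fold change was 0.05 (SE 0.0971).

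The B56 genes encode a family that binds a short linear motif in its partners and acts at kinetochores and in growth signalling. PPP2R5A (ENSG00000066027, chromosome 1, plus strand, 212285410 to 212361853) encodes B56 alpha, known for directing PP2A to MYC. It was at 29.6, 29.4 and 29.7 CPM in siCRP2 cells, against 42.6, 42.9 and 36.5 CPM in siCTR cells. The siCRP2 libraries were nearly equal and all lay below the siCTR libraries. The log2 fold change was -0.46 (SE 0.104), with -0.53, -0.54 and -0.30 within the codes. Its share of the B56 transcripts per kb was 5.53% ± 0.157 in siCRP2 cells and 8.17% ± 0.367 in siCTR cells (SD, n = 3 each).

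The other B56 genes of the set were called neither way. PPP2R5C (ENSG00000078304, chromosome 14, plus strand, 101761709 to 101927989), B56 gamma, was at 158, 165 and 145 CPM in siCRP2 cells, against 157, 161 and 131 CPM in siCTR cells (log2 fold change 0.06, SE 0.0940). PPP2R5E (ENSG00000154001, chromosome 14, minus strand, 63371364 to 63543377), B56 epsilon, was at 82.4, 93.6 and 88.3 CPM in siCRP2 cells, against 97.8, 97.8 and 86.5 CPM in siCTR cells (log2 fold change -0.09, SE 0.0889). Both overlapped between the groups. PPP2R5C shares 3.45% of its runs of 75 bases with the processed pseudogene PPP2R5CP, and PPP2R5E shares 1.85% with another.

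PPP2R5D (ENSG00000112640, chromosome 6, plus strand, 42984553 to 43012342), B56 delta, was at 263, 265 and 245 CPM in siCRP2 cells, against 256, 217 and 194 CPM in siCTR cells. siCTR library A stood above siCRP2 library C, so the groups overlapped. The log2 fold change was 0.21 (SE 0.0985) without a call, and with the code as a block it was 0.22 and called higher. It was also called higher (0.33) when siCTR library A was left out. With the block, 4 of the 10 genes were called higher and 2 lower, beside 19.5% and 17.8% of all genes. PPP2R5D shares 1194 exon bases, 31.5% of its exons, with MEA1 on the other strand, which was at 234 ± 6.04 CPM in siCRP2 cells and 205 ± 2.52 CPM in siCTR cells (SD, n = 3 each; log2 fold change 0.19, adjusted p = 0.092, edgeR quasi-likelihood test, higher in 3 of 3 codes, and called higher with the code as a block, adjusted p = 0.0075). PPP2R5D also shares 38.7% of its runs of 75 bases with MEA1, either strand counted. As for SIK2, whether the counts kept the strands apart is not known. If reads of that stretch were left out or mixed, the PPP2R5D level and its rank could be affected. So could the PPP2R5A share of the B56 transcripts and the summed B56 level, which was not tested.

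**Figure D3:**
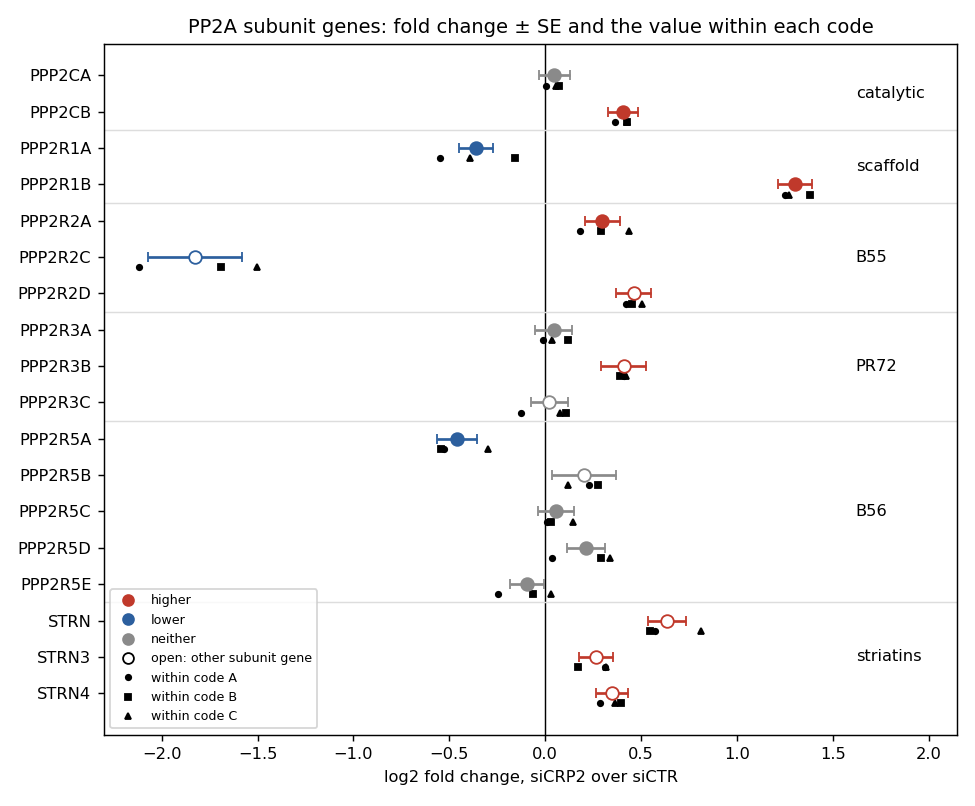
Log2 fold change, siCRP2 over siCTR, of the 10 subunit genes (filled circles) and of 8 other regulatory subunit genes (open circles), by family, with SE bars and, below each, the value within codes A, B and C (small marks). PPP2R1B at 1.30 and PPP2R2C at -1.83 lie farthest out, and of the genes in colour PPP2R1A (-0.16 to -0.55) has within-code values that range widely for its size.

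Taking the groups as a whole, 5 of the 10 genes did not overlap between siCRP2 and siCTR, 3 above and 2 below, beside 37.4% of all genes tested. The order of the 10 levels per kb of canonical transcript also differed. In siCRP2 cells PPP2R5D (86.7 CPM per kb) was followed by PPP2CB (64.2), PPP2CA (43.6), PPP2R1A (42.9), PPP2R5C (33.7), PPP2R1B (28.0), PPP2R2A (26.2), PPP2R5E (13.2), PPP2R5A (9.11) and PPP2R3A (5.73). Of these neighbours, PPP2CA with PPP2R1A and PPP2R1B with PPP2R2A overlapped between libraries. In siCTR cells PPP2R5D (74.9 CPM per kb) was followed by PPP2R1A (55.1), PPP2CB (48.4), PPP2CA (42.3), PPP2R5C (32.3), PPP2R2A (21.3), PPP2R5E (14.1), PPP2R5A (12.5), PPP2R1B (11.4) and PPP2R3A (5.55). There, PPP2R5E with PPP2R5A and PPP2R5A with PPP2R1B overlapped. By the length of all exons the order differed: in siCRP2 cells PPP2CA came 2nd, PPP2R1B 4th and PPP2R1A 5th, and in siCTR cells PPP2CA came 2nd and PPP2R2A 8th. With both lengths PPP2R1B stood just above PPP2R3A in siCTR cells and above PPP2R2A, PPP2R5E and PPP2R5A in siCRP2 cells.

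The effect of the code is a measure that played no part in choosing the genes, and it was tested in a fit with group and code. The p-values of this fit rest mainly on a spread pooled over genes. PPP2R5C (adjusted p = 0.032) and PPP2R5D (adjusted p = 0.033, both edgeR quasi-likelihood test) differed between codes, 2 of the 10 genes, beside 14.9% of all genes tested. For both, library C was the lowest of its group, at 145 CPM in siCRP2 cells and 131 CPM in siCTR cells for PPP2R5C, and at 245 CPM in siCRP2 cells and 194 CPM in siCTR cells for PPP2R5D. The scaffold and catalytic genes did not pass this test, with adjusted p of 0.31 (PPP2R1B, edgeR) to 0.97 (PPP2CB, edgeR), which does not show that they were equal between codes.

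Of 9 other genes of regulatory subunits, 5 were higher in siCRP2 cells, 1 was lower and 3 passed in neither direction, with a median log2 fold change of 0.27. Beside this, 12.5% of all genes tested were higher and 11.5% lower, or 28.8% and 17.1% of those of at least 20 CPM. PPP2R2C, encoding B55 gamma, was at 2.06, 2.25 and 1.66 CPM in siCRP2 cells, against 8.97, 7.28 and 4.71 CPM in siCTR cells. It was low in all libraries and lower in every siCRP2 library, by 3.55-fold (log2 fold change -1.83, SE 0.244, adjusted p = 3.6e-05, edgeR quasi-likelihood test). PPP2R2D, encoding B55 delta, averaged 53.0 ± 1.60 CPM in siCRP2 cells and 38.5 ± 0.999 CPM in siCTR cells (SD, n = 3 each; log2 fold change 0.46, adjusted p = 0.0013, edgeR, higher in 3 of 3 codes). The neuronal B55 beta gene PPP2R2B had 0 counts in each siCRP2 library and 1 count in each siCTR library, which is under the floor of 3 counts per library and gives no fold change.

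PPP2R2C held little of the B55 pool, so PPP2R2A still made up 71.7% ± 0.591 of the B55 transcripts per kb in siCRP2 cells and 70.8% ± 0.784 in siCTR cells (SD, n = 3 each). The summed B55 level was 36.5 ± 0.628 CPM per kb in siCRP2 cells and 30.0 ± 2.68 CPM per kb in siCTR cells, a ratio of 1.21. For the B56 genes, PPP2R5B included, that ratio was 1.08. PPP2R5B, B56 beta, averaged 60.7 ± 10.1 CPM in siCRP2 cells and 52.9 ± 11.4 CPM in siCTR cells (SD, n = 3 each) and was not called (log2 fold change 0.20, adjusted p = 0.46, edgeR). It was called higher with the code as a block, and it differed between codes (adjusted p = 2.1e-07, edgeR), with library C the highest in both groups.

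In the PR72 family, PPP2R3B averaged 27.6 ± 2.36 CPM in siCRP2 cells and 20.8 ± 1.57 CPM in siCTR cells (SD, n = 3 each; log2 fold change 0.41, adjusted p = 0.015, edgeR, higher in 3 of 3 codes). Its call was lost without siCRP2 library A, siCRP2 library C or siCTR library B (log2 fold change 0.34 to 0.38). PPP2R3C had a log2 fold change of 0.02 (adjusted p = 0.9, edgeR), higher in 2 of 3 codes.

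The striatins, scaffolds that join PP2A to kinases in the STRIPAK complex, were higher together. STRN was at 95.4, 87.3 and 87.8 CPM in siCRP2 cells, against 64.3, 59.8 and 50.0 CPM in siCTR cells (log2 fold change 0.64, SE 0.0993, adjusted p = 0.00015, edgeR). STRN4 was at 172, 172 and 188 CPM in siCRP2 cells, against 141, 130 and 146 CPM in siCTR cells (log2 fold change 0.35, adjusted p = 0.0054, edgeR), a call lost without siCRP2 library C (0.28). STRN3 was at 57.6, 55.7 and 56.7 CPM in siCRP2 cells, against 46.4, 49.5 and 45.5 CPM in siCTR cells (log2 fold change 0.27, adjusted p = 0.04, edgeR). All 3 had no overlap between groups, as had 37.4% of all genes tested. The STRN3 call was lost when any library was left out (0.24 to 0.30). It was also lost with DESeq2 size factors, the exact test or the filter on a count in any library. STRN shares 18% of its runs of 75 bases with the annotated gene ENSG00000279519. The summed striatin level was 75.7 ± 2.94 CPM per kb in siCRP2 cells and 59.1 ± 1.85 CPM per kb in siCTR cells (SD, n = 3 each), a ratio of 1.28.

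A heptamer, GCCTCAC, was looked up in the canonical transcripts of the subunit genes (GENCODE 44). It had been picked for its relation to the fold changes of these libraries, so its shares are a description. It occurs in 46.5% of the protein-coding genes called lower, 11.9% of those called higher and 23.9% of all 14858 tested. PPP2CA and PPP2R5A hold 1 copy each, in the coding sequence, at chr5:134200369-134200375 (minus strand, GRCh38) and chr1:212333586-212333592 (plus strand). The other 8 genes, PPP2R1A and all 3 called higher among them, hold none, and neither does any of the other subunit genes but PPP2R2C, which has 2 copies in its 3′ UTR, at chr4:6322867-6322873 and chr4:6322495-6322501 (minus strand). The sites are given with their flanks, heptamer in capitals, since PPP2R5A and PPP2R2C are 2 of the 3 subunit genes called lower.
PPP2CA: tcatgccaatgGCCTCACgttggtgtcta
PPP2R5A: gaggcctcttgGCCTCACatacagttggt
PPP2R2C, proximal: ttctcccccatGCCTCACtggtcccagat
PPP2R2C, distal: ccctccctgccGCCTCACccttcagcatt
PPP2CA carries the heptamer without a call and PPP2R1A was called lower without it.

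Of 15 genes that control PP2A assembly and activity, 4 were higher and 3 lower in siCRP2 cells (median log2 fold change 0.10). The shares over all genes tested were 12.5% higher and 11.5% lower, and 28.8% and 17.1% at 20 CPM or more. MASTL, the Greatwall kinase that inhibits PP2A bound to B55 in mitosis, was at 141, 122 and 133 CPM in siCRP2 cells, against 72.8, 55.4 and 56.6 CPM in siCTR cells (log2 fold change 1.09, SE 0.107, adjusted p = 1.9e-06, edgeR). ANP32A, an inhibitor of PP2A, was at 41.5, 49.9 and 39.6 CPM in siCRP2 cells, against 99.6, 99.3 and 81.8 CPM in siCTR cells (log2 fold change -1.10, SE 0.108, adjusted p = 1.6e-06, edgeR). PTPA, a chaperone that activates the catalytic subunit, was at 99.8, 117 and 109 CPM in siCRP2 cells, against 180, 174 and 172 CPM in siCTR cells (log2 fold change -0.69, SE 0.0850, adjusted p = 1.5e-05, edgeR). None of these 3 genes overlapped between groups, as was so for 37.4% of all genes tested.

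LCMT1, which methylates the tail of the catalytic subunit and so favours binding of B subunits, averaged 28.4 ± 2.30 CPM in siCRP2 cells and 20.6 ± 1.18 CPM in siCTR cells (SD, n = 3 each; log2 fold change 0.46, adjusted p = 0.0061, edgeR, higher in 3 of 3 codes). PABIR2, a relative of a known inhibitor of the B55 enzyme, averaged 63.9 ± 6.32 CPM in siCRP2 cells and 47.4 ± 5.20 CPM in siCTR cells (SD, n = 3 each; log2 fold change 0.43, adjusted p = 0.006, edgeR, higher in 3 of 3 codes), a call lost without siCTR library B (0.38, adjusted p = 0.0504, edgeR). PABIR1, the inhibitor to which PABIR2 is related, went the other way (log2 fold change -0.45, adjusted p = 0.035, edgeR). SET, also among the regulators called, was higher where ANP32A was lower (0.33, adjusted p = 0.0097, edgeR). Whether these calls hold with a library left out was not looked at. Genes that inhibit and genes that activate PP2A thus moved in both directions, and enzyme activity was not measured.

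**Figure D4:**
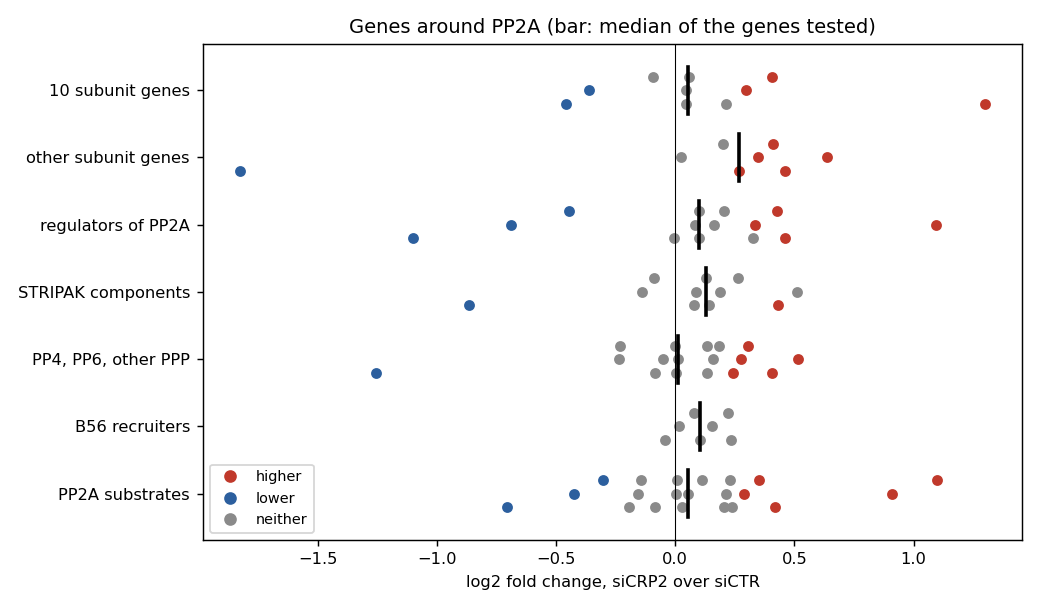
Log2 fold change, siCRP2 over siCTR, of each gene tested in 7 lists (1 point a gene, coloured by its call), with a bar at the median of all genes tested in the list. PPP2R2B, PPEF1, PPEF2 and SETBP1, uncalled genes of few counts, are not drawn. The medians run from 0.01 (PP4, PP6 and other PPP genes) to 0.27 (other subunit genes), and MASTL, ANP32A and BCL2 lie near 1 in size.

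Of the 12 listed components of STRIPAK beside the striatins, 11 were tested and 1 moved in each direction. Over all genes tested, 12.5% were higher and 11.5% lower, or 28.8% and 17.1% of those of at least 20 CPM. SIKE1 was at 36.5, 35.3 and 33.9 CPM in siCRP2 cells, against 71.3, 64.7 and 56.5 CPM in siCTR cells (log2 fold change -0.87, adjusted p = 1.1e-05, edgeR), and the kinase gene STK24 was at 161, 163 and 168 CPM in siCRP2 cells, against 128, 119 and 118 CPM in siCTR cells (log2 fold change 0.43, adjusted p = 0.00073, edgeR). With the code as a block 4 were higher and 1 lower, beside 19.5% and 17.8% of all genes tested. CTTNBP2, with 2 counts in siCRP2 cells and 1 count in siCTR cells, was not tested. Of 7 partners that recruit B56 enzymes in mitosis, 0 were called, beside the same shares without the block (28.8% and 17.1% at 20 CPM or more). DESeq2 and the exact test also called 0 of them. In edgeR without the block, 0 had an unadjusted p under 0.05 (lowest 0.0748), against 3 with it. Their log2 fold changes ran from -0.04 to 0.24, and 3 of them (KIF4A, RACGAP1 and SGO1) were called higher with the code as a block.

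Among 19 genes of related phosphatases (PP4, PP6, PP1, calcineurin and others), 5 were higher and 1 lower, with a median log2 fold change of 0.01. Shares over all genes tested were 12.5% and 11.5%, and 28.8% and 17.1% at 20 CPM or more. PPP5C, the catalytic gene of PP5, averaged 100 ± 2.22 CPM in siCRP2 cells and 75.7 ± 3.57 CPM in siCTR cells (SD, n = 3 each; log2 fold change 0.41, adjusted p = 0.0016, edgeR, higher in 3 of 3 codes). PPP3CC (0.52, adjusted p = 0.0036), PPP1CA (0.31, adjusted p = 0.016) and PPP4R2 (0.28, adjusted p = 0.021) were higher and PPP4R4 (-1.26, adjusted p = 0.034, all edgeR) lower, each in 3 of 3 codes. PPP4R4 was at most 1.14 CPM in any library, and its call was lost in the DESeq2 Wald test (-1.31, adjusted p = 0.0582) and without siCRP2 library A, B or C or siCTR library B or C (-1.44 to -0.995). The calls of PPP1CA (0.22 to 0.31 without siCRP2 library B or C or siCTR library B) and PPP4R2 (0.23 to 0.26 without siCRP2 library B or C or siCTR library A) were also lost on leaving out 1 library.

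Among 21 known substrates of PP2A, 5 genes were higher and 3 lower (median log2 fold change 0.06). For all genes tested the shares were 12.5% and 11.5%, and 28.8% and 17.1% at 20 CPM or more. AKT2 was at 79.7, 82.2 and 88.6 CPM in siCRP2 cells, against 139, 129 and 141 CPM in siCTR cells (log2 fold change -0.71, adjusted p = 1.1e-05, edgeR). BCL2, an inhibitor of apoptosis, was at 13.8, 10.1 and 13.1 CPM in siCRP2 cells, against 7.54, 4.66 and 4.99 CPM in siCTR cells (log2 fold change 1.10, adjusted p = 0.00049, edgeR). RBL1, the pocket protein p107, was also higher (log2 fold change 0.91, adjusted p = 0.0023, edgeR, 3 of 3 codes), as was AXIN1 (0.42, adjusted p = 0.0069, edgeR, 3 of 3 codes; 0.33 and not called without siCRP2 library C), and the beta-catenin gene CTNNB1 was lower (-0.42, adjusted p = 0.0047, edgeR, 3 of 3 codes). These are transcript levels, and the phosphorylation of the proteins was not measured.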

How the data were processed

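RNA was sequenced by the authors from MDA-MB-231 cells in 6 libraries, 3 per group. The deposited table holds whole-number counts, not normalised, made by the authors from paired-end reads of 75 bases aligned to GRCh38, the build the submitters' processing notes also name. The study's methods describe stranded libraries, the labels a standard mRNA kit. Whether strand was used in counting, and the annotation, are not given there. Columns were assigned to groups by name. The replicates are described as biological. The p-values without the block rest on their spread, in part borrowed from other genes. With the code as a block, genes of unlike spread between codes had nearly the same SE, at 0.0628 for PPP2CA and for PPP2R1A. Those p-values, of the group and of the code, rest mainly on a spread pooled over genes.

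The 23806 genes counted at least once in 2 or more libraries of either group entered the fit. TMM factors were 0.989 to 1.03. The main test was the robust quasi-likelihood F test of edgeR 4.0.16 (limma 3.58.1, R 4.3.3), siCRP2 against siCTR, with Benjamini-Hochberg adjustment over all genes and a call at an adjusted p under 0.05. DESeq2 1.42.0 served as an alternative. CPM used TMM-scaled totals. Steps were tested on simulated counts. Symbols (110 of 110 matched) and transcript lengths came from GENCODE 44, promoters from RefSeq.

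The code in the column names pairs the libraries: deviations from group means correlated at 0.723, 0.459 and 0.744 for the same code and at most 0.114 otherwise (10828 genes of at least 5 CPM). This comes from the data, since the labels do not give the codes.

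The genes and lists were chosen with earlier results of these data known. Named genes are the 10, all other regulatory subunits, CSRP2, absent line markers, and up to 5 called genes with the smallest p from each other pathway list. Named outside this rule, after their values were seen, are genes sharing exon bases, markers of the line and of other cell types, partners of B56 called with the block (KIF4A, RACGAP1 and SGO1), CTTNBP2, which was not tested, and the genes not drawn in a plot. SET and PABIR1 are also named outside it.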

Additional observations from a re-analysis of the deposited data

How the results depend on the processing

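The calls of PPP2R1B, PPP2CB, PPP2R1A and PPP2R5A held under all 13 alternatives run (2 other normalisations, 2 other tests, 2 other filters, the block and each of 6 libraries left out), and that of PPP2R2A under 8 of them. With the code as a replicate block, 4 of the 10 genes were called higher (3 without the block) and 2 lower. Calls rose in every other list too. They were 5 for STRIPAK (2 without the block), 3 for the partners that recruit B56 (0) and 7 for the other subunit genes (6). They were 10 for the regulators of PP2A (7), 9 for the related phosphatases (6) and 12 for the substrates (8). Among the subunit genes PPP2R5D and PPP2R5B gained a call, and no named gene lost one. Over all genes, the block gave 4644 higher and 4229 lower calls, against 2987 and 2735 without it. The p-values of the blocked fit rest mainly on a spread pooled over genes, and less on that of each gene. With the filterByExpr filter, 1 of the 10 genes differed between codes (2 in the fit described), and the log2 fold changes of PPP2R3A (-0.00097) and PPP2R3C (-0.025), both near 0, changed sign. With 1 library left out, calls ran from 2 to 6 for the related phosphatases (6 with all libraries), from 3 to 6 for the other subunit genes (6) and from 0 to 2 for the partners that recruit B56 (0). The log2 fold changes that crossed 0 on leaving out a library were those of PPP2CA (-0.019 to 0.067), PPP2R3A (-0.0057 to 0.080), PPP2R5C (-0.030 to 0.11) and PPP2R3C (-0.033 to 0.062), none of them called. The cause was not tested. Lengths of all exons and the comparison with genes of at least 20 CPM were chosen after seeing the data. The number of libraries, 3 a group, limits the precision.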
